A study of Mus musculus with 6 samples.

Results

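The genes described here are Bmp4, its receptors Bmpr1a and Bmpr2, the secreted inhibitor Nog, the inhibitory SMADs Smad6 and Smad7, and the target genes Id1, Id2, Id3 and Id4. These 10 genes were chosen by symbol and each had 1 probe set among the 19938 genes tested. RNA came from mouse embryonic stem cells, the cultured pluripotent cells of the early embryo. All arrays were of the line labelled Dicer Fx/Fx, in which Dicer, the enzyme that cuts microRNA precursors, can be deleted on demand. The untreated group (3 arrays) is labelled as not deleted. The tamoxifen group (3 arrays) is labelled as deleted, after 3 days with the drug and 2 days without it, at collection on day 5. The labels give standard embryonic stem cell culture for both groups, name no recombinase and no clone, and give no collection day for the untreated cells. The protocol also mentions wild type E14 cells given tamoxifen, of which no array was used here, so tamoxifen, Dicer deletion and time in culture cannot be told apart. Samples are numbered 1 to 3 in each group, and nothing says whether they were independent cultures. The p-values therefore speak only to the variation among these samples, part of which may be technical.

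BMP4 is a secreted ligand that joins type I receptors such as BMPR1A with type II receptors such as BMPR2. The active receptors phosphorylate SMAD1, SMAD5 and SMAD9, which enter the nucleus with SMAD4 and switch on the Id genes. ID proteins have a helix-loop-helix domain and lack the basic region that touches DNA, so they capture bHLH transcription factors and keep them off their sites. In mouse embryonic stem cells, BMP4 acting through the Id genes works together with the cytokine LIF in maintaining self-renewal, and SMAD6, SMAD7 and Noggin restrain the signal.

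The check of the labels came first. Dicer1 fell to 27.7% of its untreated signal, with a 95% confidence interval from 24.6% to 31.1% (limma, adjusted p = 3.61e-05), and its 3 tamoxifen values lay below its 3 untreated values. All 10 embryonic stem cell markers examined, among them Pou5f1, Sox2 and Nanog, had mean log2 signals of at least 9.87 (Zfp42 the dimmest), against a median of 7.81 over all genes tested. Their summed linear signal was 74525 to 79423 in the untreated arrays and 69512 to 74307 in the tamoxifen arrays, so the sums did not overlap. Of the 10 markers, 5 lay wholly lower and 1 wholly higher in the tamoxifen arrays, beside 14.8% and 14.5% of all genes. The limma fit called 0 of the 10, with 4 lower at an unadjusted p under 0.05. Of all genes, 13.1% were lower at that mark. When the fit was blocked by replicate number, 3 of the 10 markers fell, Fgf4 (-0.32, adjusted p = 0.00835), Utf1 (-0.26, 0.0193) and Tdgf1 (-0.24, 0.0326). That fit called 9.54% of all genes lower. Markers of fibroblasts (8 measured), primitive endoderm (7), trophectoderm (8) and neuroectoderm (7) had 0 called members each, with 1, 2, 3 and 2 past an unadjusted p of 0.05, and summed signals that overlapped between groups. The blocked fit called 1, 2, 3 and 1 of them. Thy1 of the fibroblasts fell (-0.32, adjusted p = 0.00725). In primitive endoderm Pdgfra rose (0.36, 0.0180) and Sox7 fell (-0.28, 0.0410). In trophectoderm 1 rose and 2 fell, Eomes the most (-0.57, 0.00745). Sox1 of the neuroectoderm rose (0.29, 0.0211). Over all genes, 24.5% passed the unadjusted mark and 17.4% were called in the blocked fit. Of 6 mesoderm markers, Kdr, a receptor of vascular growth factors, was called higher (0.26 ± 0.07, adjusted p = 0.0468), although the call was lost in each of the 6 fits that left out 1 array. The 6 markers all lay below the median signal of 7.81 over all genes, with log2 means from 5.81 for Kdr to 7.39 for Msgn1. Only Kdr was below the 25th percentile of 6.08. Kdr, Foxf1 and Msgn1 rose in the blocked fit, by 0.26, 0.22 and 0.22 (adjusted p = 0.0202, 0.0388 and 0.0442). That fit called 7.87% of all genes higher. The summed mesoderm signal was 655 to 674 in untreated and 716 to 763 in tamoxifen arrays, and the part of these marker changes in the results below was not tested.

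Of the 10 members, limma called 5 after tamoxifen at a Benjamini-Hochberg adjusted p under 0.05 over all genes. The ligand Bmp4 and the target Id1 fell, and Id2, Id4 and the receptor Bmpr2 rose. Id3, Smad6, Smad7, Bmpr1a and Nog were not called. Over all genes tested 7.78% were called, 3.79% higher and 3.99% lower. The members were picked with earlier results of these arrays known, so their share is a description. The 3 tamoxifen values lay wholly above or below the 3 untreated values for the same 5 members, a pattern found in 29.3% of all genes. The median change was 0.08 over the members and 0.01 over all genes. For a single gene, the exact two-sided permutation test of 3 against 3 arrays cannot go below p = 0.1, and these 5 genes each reached that value.

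**Figure D1:**
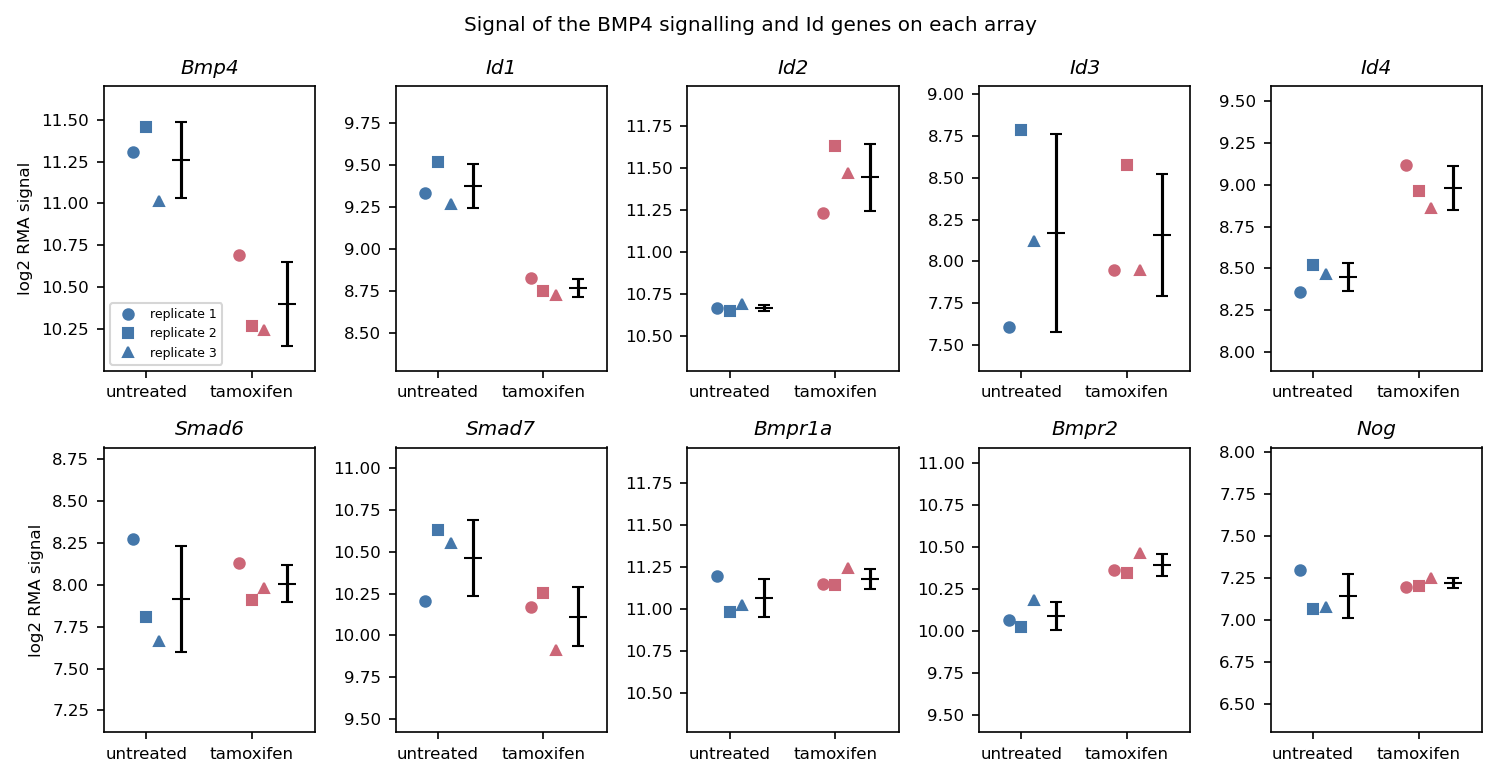
Log2 RMA signal of each member on each of the 6 arrays, with the symbol showing the replicate number (circle 1, square 2, triangle 3) and the black bar the group mean ± SD (n = 3). Every panel spans the same log2 range. The groups are apart for Bmp4, Id1, Id2, Id4 and Bmpr2 and overlap for the other members.

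Bmp4, the ligand, had log2 signals of 11.31, 11.46 and 11.01 in untreated replicates 1 to 3 and of 10.69, 10.27 and 10.24 in tamoxifen replicates 1 to 3. All tamoxifen arrays were below all untreated arrays, and tamoxifen replicate 1 was the nearest to them. The mean fell from 11.26 ± 0.23 to 10.40 ± 0.25 (SD, n = 3), a log2 change of -0.86 ± 0.14 (SE, adjusted p = 0.0122). The tamoxifen arrays thus kept 55.1% of the untreated signal (95% confidence interval 44.0% to 69.1%). Of the 19938 genes, 77 had a larger change in either direction. The adjusted p was 0.0569 without tamoxifen replicate 2, with a change of -0.79, and the gene was called in the other 5 fits that left out 1 array. In bulk RNA, fewer cells that make a transcript and less of it per cell cannot be told apart, here and in every result below.

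Nog encodes Noggin, which binds BMP ligands outside the cell. Its signals were 7.30, 7.06 and 7.08 in untreated and 7.20, 7.20 and 7.25 in tamoxifen replicates. The groups overlapped because untreated replicate 1 was the highest of the 6 arrays. The change was 0.07 ± 0.08 (95% confidence interval -0.10 to 0.25, adjusted p = 0.605).

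Bmpr2, the type II receptor, had signals of 10.07, 10.02 and 10.18 in untreated and 10.37, 10.34 and 10.47 in tamoxifen replicates. The groups did not overlap, and the differences between same-numbered samples were close to each other, at 0.30, 0.32 and 0.28. The mean rose from 10.09 ± 0.08 to 10.39 ± 0.06 (SD, n = 3), a change of 0.30 ± 0.07 (SE) on the log2 scale, 1.23-fold (adjusted p = 0.0345). This was the least secure call. The adjusted p was 0.0697, 0.119, 0.0550, 0.0929 and 0.123 without untreated replicates 1 and 2 and tamoxifen replicates 1, 2 and 3, while the change stayed between 0.26 and 0.35 in the 6 fits.

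Bmpr1a, the type I receptor, had signals of 11.19, 10.98 and 11.03 in untreated and 11.15, 11.15 and 11.25 in tamoxifen replicates. Untreated replicate 1 lay among the tamoxifen arrays. The change was 0.11 ± 0.07 (95% confidence interval -0.06 to 0.28, adjusted p = 0.393).

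Smad7 and Smad6 encode inhibitory SMADs that are themselves induced by the pathway and block receptors and SMAD complexes. Smad7 had signals of 10.20, 10.63 and 10.55 in untreated and 10.17, 10.25 and 9.92 in tamoxifen replicates. The groups overlapped through untreated replicate 1, which was below tamoxifen replicate 2. The change was -0.35 ± 0.12 (95% confidence interval -0.63 to -0.07), with an adjusted p of 0.127 and of 0.0512 with the replicate number as a block. Without untreated replicate 1 the change was -0.48 and the adjusted p 0.0377.

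Smad6 had signals of 8.27, 7.81 and 7.66 in untreated and 8.13, 7.91 and 7.98 in tamoxifen replicates. The tamoxifen values all lay within the untreated range, and replicate 1 was the highest in both groups. The change was 0.09 ± 0.14 (95% confidence interval -0.23 to 0.41, adjusted p = 0.743), and it was -0.03 without untreated replicate 3.

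The 4 Id genes did not share a direction. Id1 fell, Id2 and Id4 rose, and Id3 was not called. Id1 had signals of 9.34, 9.52 and 9.27 in untreated and 8.83, 8.75 and 8.73 in tamoxifen replicates. Every tamoxifen array was below every untreated array. The mean moved from 9.37 ± 0.13 to 8.77 ± 0.05 (SD, n = 3), a log2 change of -0.61 ± 0.08 (SE, adjusted p = 0.00527), which left 65.7% of the untreated signal (95% confidence interval 58.1% to 74.3%).

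Id2 had signals of 10.66, 10.65 and 10.69 in untreated and 11.24, 11.63 and 11.47 in tamoxifen replicates. The untreated arrays were tightly grouped, with an SD of 0.02, and all tamoxifen arrays were higher. The mean rose from 10.67 to 11.45 ± 0.20 (SD, n = 3), a change of 0.78 ± 0.10 (SE) on the log2 scale, 1.72-fold (adjusted p = 0.00456). Of all genes tested, 110 had a larger change in either direction.

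Id4 had signals of 8.36, 8.52 and 8.47 in untreated and 9.12, 8.96 and 8.86 in tamoxifen replicates. All tamoxifen arrays were above all untreated arrays. The mean rose from 8.45 ± 0.08 to 8.98 ± 0.13 (SD, n = 3), a change of 0.53 ± 0.08 (SE) on the log2 scale, 1.44-fold (adjusted p = 0.00951). Id1, Id2 and Id4 were called in each of the 6 fits that left out 1 array, with adjusted p-values up to 0.0302, 0.0242 and 0.0434.

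Id3 had signals of 7.61, 8.79 and 8.12 in untreated and 7.95, 8.58 and 7.95 in tamoxifen replicates. Replicate 2 was the highest array of both groups, and the tamoxifen values lay within the untreated range. The change was -0.01 ± 0.28 with a 95% confidence interval from -0.64 to 0.61 (adjusted p = 0.984). Its within-group SD of 0.49 was far above the median of 0.09 over all genes tested, and only 0.0903% of genes had a larger SD. With the replicate number as a block, the SE was 0.10 in place of 0.28, the 95% confidence interval ran from -0.25 to 0.22, and the adjusted p was 0.947. A change of the size seen in Id1 or Id4 thus lay inside the unblocked interval and outside the blocked one. Same-numbered samples differed by 0.34, -0.21 and -0.17. The change was 0.29 without untreated replicate 2, with an adjusted p of 0.511.

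**Figure D2:**
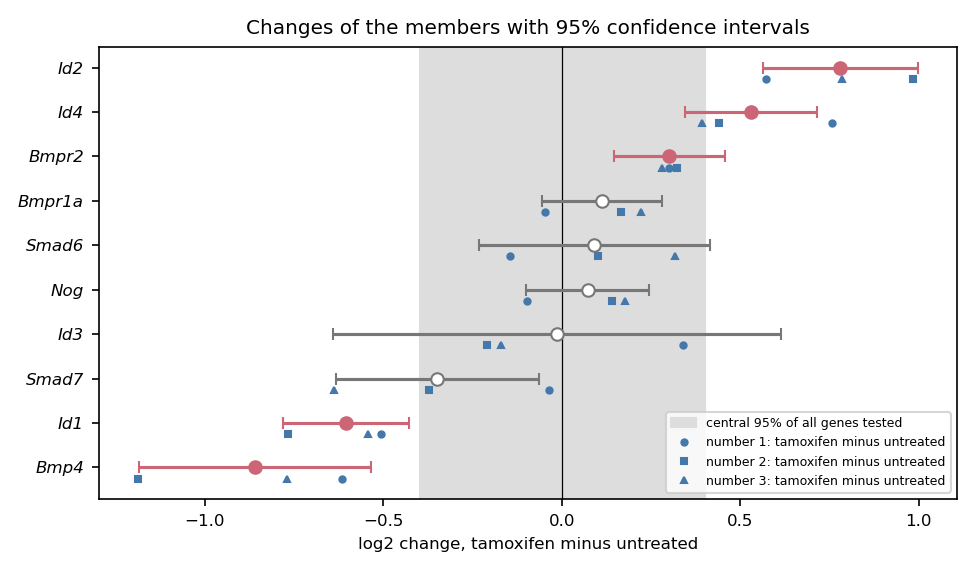
Log2 change of each member, tamoxifen minus untreated, with limma's 95% confidence interval (filled red, called at an adjusted p under 0.05; open grey, not called) and, beneath each, the differences of the same-numbered samples in blue. The grey band holds the central 95% of all genes tested, from -0.40 to 0.40. Bmp4, Id1, Id2 and Id4 lie outside the band and Bmpr2 inside it.

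Since both genes of a ratio come from the same array, the log2 ratio of a pair of members does not depend on a constant scaling factor of the array. It can depend on a normalisation that treats bright and dim genes differently, and it was not recomputed under other normalisations. It shows unequal change of the pair, not which gene moved. Across 8 chosen pairs, the Id2 over Id1 ratio shifted most. It was 1.33, 1.13 and 1.42 in untreated and 2.41, 2.88 and 2.75 in tamoxifen replicates, a shift of 1.39 ± 0.17 (SE, n = 3 in each group) or 2.61-fold. The groups lay far apart, and the shift was 1.28 to 1.52 when 1 array was left out.

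The Id4 over Id1 ratio was -0.98, -1.00 and -0.80 in untreated and 0.29, 0.21 and 0.13 in tamoxifen replicates, a shift of 1.13 ± 0.08 (SE) or 2.20-fold. Bmpr2 over Bmpr1a was the other pair whose groups did not overlap, with a shift of 0.19 ± 0.08, and the tamoxifen ratios had an SD of 0.01. For Id2 over Id4 the groups overlapped (0.25 ± 0.18, exact permutation p = 0.4). The pairs with Id3 had shifts of 0.59 ± 0.36 over Id1, -0.54 ± 0.38 over Id4 and 0.79 ± 0.37 for Id2 over Id3, all overlapping (SE without pairing). Between same-numbered samples each of these ratios moved the same way in all 3 pairs, by 0.85, 0.56 and 0.37 for Id3 over Id1, -0.42, -0.65 and -0.56 for Id3 over Id4, and 0.23, 1.19 and 0.96 for Id2 over Id3. The SE over the pairs was 0.14, 0.07 and 0.29. Pairing raised the SE of Id2 over Id1 and Id4 over Id1, to 0.20 and 0.10. Bmpr2 over Bmpr1a moved by 0.35, 0.16 and 0.06 between same-numbered samples. Id2 over Id4 (-0.18, 0.54 and 0.39) and Smad7 over Smad6 (0.11, -0.47 and -0.95) did not move the same way in all 3 pairs. Smad7 over Smad6 shifted by -0.44 ± 0.33 and also overlapped (exact permutation p = 0.4). The exact two-sided permutation p of the 3 separated pairs was 0.1, the smallest possible, and 0.267 after Benjamini-Hochberg adjustment over the 8 pairs. For Id2 over Id1 and Id4 over Id1 the separation was fixed by the single genes. Id1 was lower and Id2 and Id4 higher on every tamoxifen array, so these ratios restate those changes and are no further test.

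**Figure D3:**
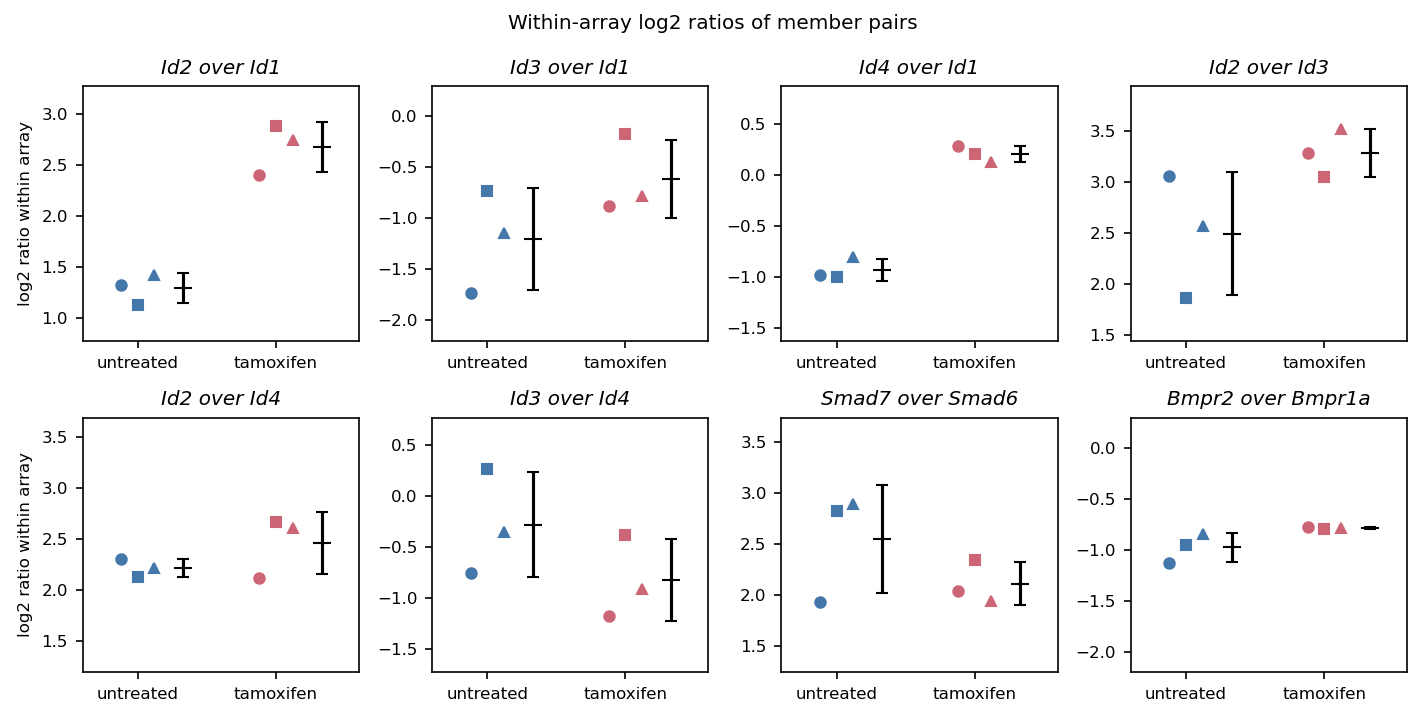
Within-array log2 ratios of 8 member pairs on the 6 arrays (circle, square and triangle for replicates 1, 2 and 3; black bar, group mean ± SD, n = 3), each panel spanning the same log2 range. The group means of Id2 over Id1 and of Id4 over Id1 lie more than 1 log2 unit apart, at 1.29 and 2.68 and at -0.93 and 0.21.

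The DNA before the start sites was read for the members that rose and, for contrast, for Id3 and Bmp4. RefSeq promoter sequences (assembly GRCm38.p6) were matched for 7 of the 10 members; Id1, Smad7 and Nog were not used here. The windows are the 250 bases before the start. The letter patterns searched, on both strands, were GGCGCC, a GC-rich site of the BMP SMADs, CAGAC, the SMAD box, and CANNTG, the E-box that bHLH factors bind. The letters of these matches are in capitals, and matches of different patterns shared 0 bases.
Id2 (chr12:25096093-25096342, strand -): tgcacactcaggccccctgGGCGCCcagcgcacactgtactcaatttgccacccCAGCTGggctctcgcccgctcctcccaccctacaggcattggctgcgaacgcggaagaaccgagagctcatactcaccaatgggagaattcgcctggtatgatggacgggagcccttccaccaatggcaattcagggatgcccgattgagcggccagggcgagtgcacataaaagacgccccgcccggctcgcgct
Id4 (chr13:48260866-48261115, strand +): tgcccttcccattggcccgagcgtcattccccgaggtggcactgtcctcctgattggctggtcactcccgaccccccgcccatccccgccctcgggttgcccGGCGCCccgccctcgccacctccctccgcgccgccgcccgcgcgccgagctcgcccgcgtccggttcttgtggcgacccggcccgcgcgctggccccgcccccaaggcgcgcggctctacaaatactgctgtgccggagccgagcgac
Bmpr2 (chr1:59764029-59764278, strand +): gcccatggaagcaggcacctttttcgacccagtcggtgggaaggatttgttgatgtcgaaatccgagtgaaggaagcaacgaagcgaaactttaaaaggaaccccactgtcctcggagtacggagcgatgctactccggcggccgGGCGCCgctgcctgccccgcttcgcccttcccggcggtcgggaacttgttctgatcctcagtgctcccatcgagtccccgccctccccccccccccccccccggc
Id3 (chr4:136143572-136143821, strand +): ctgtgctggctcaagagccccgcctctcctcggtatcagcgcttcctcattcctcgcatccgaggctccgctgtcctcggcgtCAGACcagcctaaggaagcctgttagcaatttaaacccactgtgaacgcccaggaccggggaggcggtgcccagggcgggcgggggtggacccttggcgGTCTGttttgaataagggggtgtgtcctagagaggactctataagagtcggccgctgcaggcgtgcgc
Bmp4 (chr14:46390670-46390919, strand -): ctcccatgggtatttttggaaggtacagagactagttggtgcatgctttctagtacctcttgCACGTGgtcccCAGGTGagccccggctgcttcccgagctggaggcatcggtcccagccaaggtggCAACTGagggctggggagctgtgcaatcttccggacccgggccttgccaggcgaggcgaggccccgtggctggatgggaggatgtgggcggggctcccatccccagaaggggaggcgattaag
The pattern GGCGCC occurred in the windows of Id2, Id4, Bmpr2 and Bmpr1a, at 231, 148, 105 and 198 bases before the start (first base of the match). That is 4 of 7 member windows, against 9.59% of 32851 promoter windows in the table and 26.1% of the 9178 windows with at least 60% G and C. All 7 member windows were that rich, from 62.8% in Id2 and Id3 to 78.8% in Bmpr1a. The SMAD box stood in the Id3 window alone, at 167 and 68 bases before the start, and in 42.2% of all windows (38.6% of the windows with at least 60% G and C). E-boxes stood in the windows of Bmp4 (188, 177 and 123 bases before the start) and Id2 (196 bases), and in 66.2% of all windows (51.8% of the GC-rich ones). Among the 7 windows, those with a GGCGCC match were of the 3 members that rose and of Bmpr1a, which was not called. No window of Id1 was examined, so Bmp4 was the only called member that fell among them. A match describes the letters and is neither a bound site nor a cause.

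Further genes of the pathway, and bHLH partners and LIF genes that act beside it, were followed as well. Of 81 measured in 8 lists (ligands, receptors, SMADs, antagonists, modulators, other targets, bHLH partners and the LIF pathway), 9 rose and 0 fell, beside 3.79% and 3.99% of all genes. The bHLH and LIF lists are not parts of the BMP pathway itself and gave 2 of these rises each. All 81 count as wider pathway genes below. At an unadjusted p under 0.05 there were 19 above and 4 below, or 23 genes, and of all genes tested 24.5% passed that mark, 11.5% above and 13.1% below. Their median change was 0.05. With the replicate number as a block 12 rose and 4 fell, a fit that called 17.4% of all genes, 7.87% higher and 9.54% lower; the 5 called members were the same. The count of 9 fell when some single arrays were left out, and so did the count over all genes. Without untreated replicate 2 or 3 it was 4 or 3, in fits that called 516 or 908 of all genes. Without tamoxifen replicate 2 or 3 it was 2 or 3, in fits that called 355 or 539. The full fit called 1552 of the 19938 genes.

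Among 15 BMP ligands, Bmp4 was the only called gene. Bmp7 and Bmp8b were called with the replicate block and not in the unblocked fit. Bmp7, a ligand needed for kidney and eye development, had signals of 9.56, 8.81 and 8.57 in untreated and 9.14, 8.50 and 8.35 in tamoxifen replicates. The replicates ranked the same way in both groups, each tamoxifen sample below its same-numbered untreated sample, while the groups overlapped. Its change of -0.32 had an adjusted p of 0.509, and of 0.0120 with the block. Bmp8b, a ligand of the germ line, changed by -0.39 ± 0.12 (adjusted p = 0.0817, or 0.0226 with the block).

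Of 7 receptors, Bmpr2 and the type I receptor Bmpr1b rose and 5 were not called. Bmpr1b changed by 0.30 ± 0.06 (adjusted p = 0.0286) from an untreated log2 mean of 4.96, near the tenth percentile of mean signal over all genes (5.01), a range where RMA compresses changes. It was called only without tamoxifen replicate 1, with adjusted p-values up to 0.118 in the fits that left out 1 array. Of 6 SMADs, Smad5, a carrier of the BMP signal, rose by 0.25 ± 0.06 (adjusted p = 0.0491) and was called in 0 of the 6 fits that left out 1 array. Smad1, Smad4 and Smad9 had changes of -0.08, -0.01 and 0.13 and were not called.

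Among 15 measured extracellular antagonists 2 rose, 0 fell and 13 were not called. Fstl1, a secreted relative of follistatin, had signals of 11.63, 11.48 and 11.42 in untreated and 12.07, 12.14 and 12.02 in tamoxifen replicates. All tamoxifen arrays were higher, and the change of 0.57 ± 0.07 (adjusted p = 0.00527) was called in 6 of 6 fits that left out 1 array. Fst encodes follistatin, which binds activins and some BMPs, and rose by 0.51 ± 0.10 (adjusted p = 0.0221). Leaving out untreated replicate 1 or 3 or tamoxifen replicate 2 or 3 ended the call, with adjusted p-values up to 0.0929. The classical antagonists Chrd and Grem1 had changes of 0.19 and -0.01 and were not called.

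Of 14 modulators of the signal, Eng, the co-receptor endoglin, was called. It rose by 0.39 ± 0.08 (adjusted p = 0.0205) and was not called when untreated replicate 2 or 3 or tamoxifen replicate 2 or 3 was left out, with adjusted p-values up to 0.0905. Tob2, of a family that restrains growth, had a change of 0.25 ± 0.09 (adjusted p = 0.123, and 0.0227 with the block). Of 12 other BMP target genes limma called 0, with 3 past an unadjusted p of 0.05. The nearest to the threshold was Dusp9, a phosphatase of ERK that BMP4 induces in mouse embryonic stem cells. Its signals were 11.79, 11.43 and 11.50 in untreated and 11.33, 10.89 and 10.99 in tamoxifen replicates. Every tamoxifen array was below every untreated array, and the change of -0.50 ± 0.13 had an adjusted p of 0.0507, or 0.00135 with the replicate block. Gata2 had a change of 0.28 ± 0.11 (adjusted p = 0.145).

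ID proteins act on bHLH factors, of which 13 of 14 listed were measured, with 2 higher, 0 lower and 11 not called. With the replicate block 3 were higher and 1 lower. Neurod1, a neuronal and endocrine bHLH factor, had signals of 9.14, 9.56 and 9.18 in untreated and 9.82, 10.53 and 10.26 in tamoxifen replicates. All tamoxifen arrays were higher, by 0.91 ± 0.18 (adjusted p = 0.0194), and leaving out untreated replicate 3 or tamoxifen replicate 2 or 3 ended the call, with adjusted p-values up to 0.0729. Tcf12, an E protein that pairs with such factors, rose by 0.37 ± 0.08 (adjusted p = 0.0308) and was called only without tamoxifen replicate 1 among the fits that left out 1 array. Neurog3, a factor of endocrine progenitors, had a change of 0.41 ± 0.12 (adjusted p = 0.0686, and 0.0310 with the block). Ascl2, a factor of the placenta, had signals of 8.45, 8.31 and 7.70 in untreated and 7.65, 7.76 and 7.48 in tamoxifen replicates. Its groups overlapped through untreated replicate 3, and the change of -0.52 ± 0.18 had an adjusted p of 0.107, and of 0.0106 with the block. The E proteins Tcf3 and Tcf4 had changes of -0.02 and 0.20 and were not called.

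LIF, the cytokine that works beside BMP4, was followed through 6 genes, of which 2 rose, 0 fell and 4 were not called. Il6st, the shared receptor subunit gp130, had signals of 11.34, 11.21 and 11.26 in untreated and 11.75, 11.70 and 11.62 in tamoxifen replicates. The groups were apart, and its change of 0.42 ± 0.07 (adjusted p = 0.00998) was called in 6 of 6 fits that left out 1 array. Lif itself rose by 0.34 ± 0.08 (adjusted p = 0.0323) and was called in 1 of the 6. The receptor Lifr had a change of 0.36 ± 0.10 (adjusted p = 0.0548, and 0.00748 in the blocked fit). Stat3 and its feedback inhibitor Socs3 had changes of 0.09 and -0.10 and were not called.

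**Figure D4:**
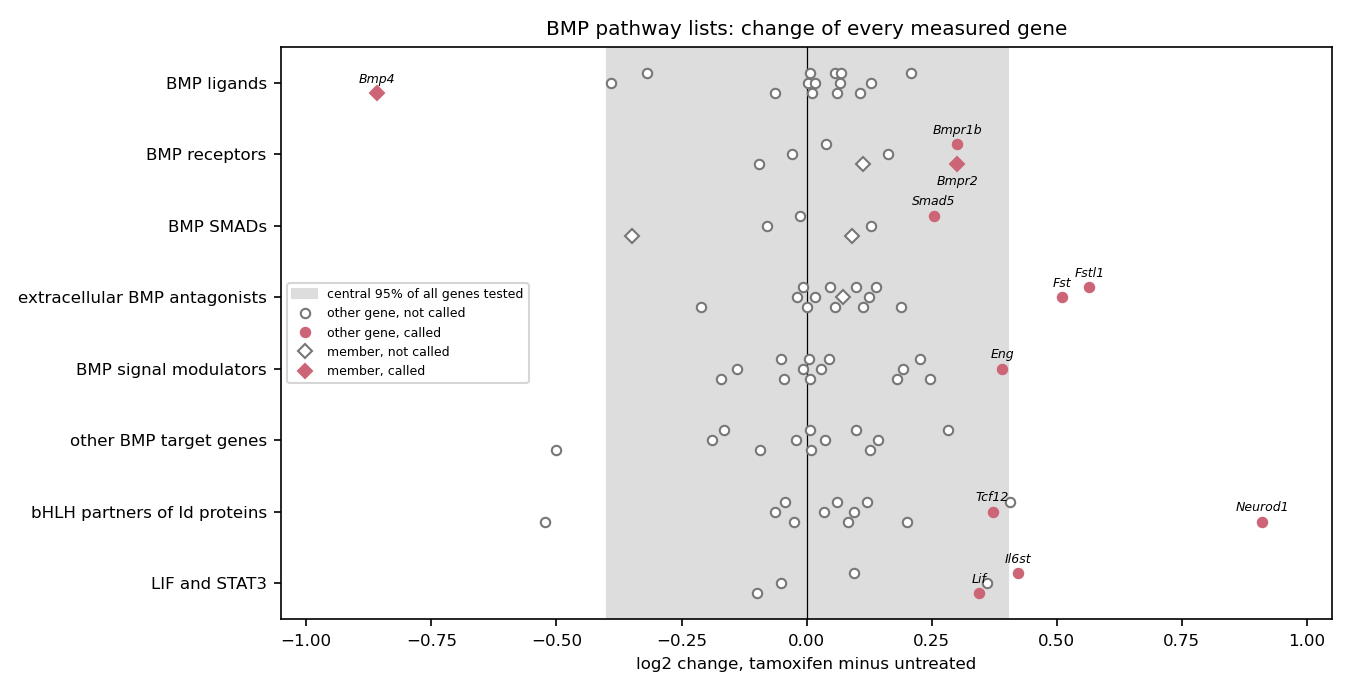
Log2 change, tamoxifen minus untreated, of every measured gene in 8 lists of the BMP pathway, bHLH partners and LIF (diamonds, members; circles, other genes; filled red, called at an adjusted p under 0.05; open grey, not called), over the central 95% of all genes in grey. Vertical offsets within a list only separate the points. Id1, Id2, Id3 and Id4 are in none of these lists and are not drawn. Of the genes drawn, Bmp4 is the only called one to the left of 0.

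To place the members among all genes, the genes whose centred log2 values over the 6 arrays lay nearest to theirs were found by root mean square difference. This measure favours genes with a like change between the groups, since that change makes up most of the variation. Nearest to Bmp4 were Fah, Ppm1j and Gmfg, at 0.095, 0.109 and 0.11, with changes of -0.98, -0.99 and -0.82, against a root mean square of 0.47 for Bmp4's own values. Nearest to Id1 were Them6, Ykt6 and Glipr2, at 0.0414, 0.0502 and 0.0526, with changes of -0.55, -0.58 and -0.56. Nearest to Id2 were Btbd11, Mfap4 and Cfp, at 0.0638, 0.0754 and 0.0908, with changes of 0.74, 0.71 and 0.72. No other member was among the 3 nearest of any of these genes.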

How the data were processed

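RNA of 6 samples was hybridised to Affymetrix arrays. Per the submitters' processing notes, the authors used RMA and Affymetrix Expression Console 1.2, and the deposited values are log2 intensities. RMA corrects background, quantile-normalises and summarises probes, so a shift shared by most genes would not show, and changes of dim genes are compressed. Values from 3.18 to 14.6 show the log2 scale. Arrays have no read depth, and their number limits the precision. The build behind the array annotation is not given in the sources used here.

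Of 35556 probe sets, 21789 had exactly 1 symbol, and the brightest of each gene was kept (19938 genes). Each member had 1 probe set. The comparison used limma 3.58.1 under R 4.3.3 (lmFit and eBayes, two-sided, Benjamini-Hochberg over all genes), with no filter and called at an adjusted p under 0.05. The code was first tested on simulated data. The members, context lists and tests were chosen with earlier results of these data known. Named genes were all members, Dicer1, up to 4 called genes per direction of each list (or the 2 smallest p-values where none was called), and the 3 nearest profiles of Bmp4, Id1 and Id2; others named (Bmp7, Bmp8b, Smad1, Smad4, Smad9, Chrd, Grem1, Tcf3, Tcf4, Lifr, Stat3, Socs3, Fgf4, Tdgf1, Foxf1, Msgn1, Tob2, Neurog3, Ascl2) were added after their values were seen. A few listed genes are not reported here.

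Same-numbered samples deviated together (correlations of deviations from group means over genes of 0.356, 0.345 and 0.389). A blocked fit, which takes same-numbered samples as pairs, therefore accompanied the unblocked one. Calls, SEs, intervals and permutation tests ignore the replicate number unless the block or pairing is named. The unblocked fit called 1552 genes and the blocked fit 3472. Alternatives were this block, the mean of probe sets, a filter on the dimmest 40%, median centring, renewed quantile and cyclic loess normalisation, another variance prior, array weights, other sets of features, stricter thresholds and leaving out each array.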

Additional observations from a re-analysis of the deposited data

How the results depend on the processing

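The changes of the members and of the other named pathway and marker genes (the latter added after seeing the data), and the counts of called members and wider pathway genes, were recomputed under the alternatives, and the ratios only under the block, the mean of probe sets and each left-out array. Id1 and Id2 kept their calls in all alternatives, and Id4 in all but the fit over all 35556 probe sets. That fit, which called 336 probe sets in all, lost Bmp4 (-0.86, adjusted p = 0.0648), Id4 (0.53, 0.0514) and Bmpr2 (0.30, 0.0968), leaving 2 called members and 2 called genes of the wider pathway. With array weights Smad7 was called (-0.42, adjusted p = 0.0449) and the wider pathway had 14 calls, against 16 with the replicate block. Those fits called 2511 and 3472 of all genes. The block changed no call of a member. At an adjusted p under 0.01 there were 3 called members and 2 wider pathway genes, and 3 wider genes with a change of at least 0.5. The shares of all genes at these thresholds are not given here. Id3 turned to 0.016 after renewed quantile normalisation and to 0.29, 0.09 and 0.09 without untreated replicate 2 and tamoxifen replicates 1 and 3, and Smad6 to -0.035 without untreated replicate 3; neither was called. Of the other genes, Smad4 turned to 0.027 after renewed quantile normalisation, 0.024 after cyclic loess and 0.00044 with array weights, and Tcf3 to 0.0029 and 0.017 after the first 2 of these. With 1 array left out, Grem1 ran from -0.021 to 0.0023 and Tcf3 from -0.051 to 0.0018. None of these was called. Bmp8b was called with array weights too (adjusted p = 0.0442), and Dusp9 without the dimmest genes (0.0431), after median centring (0.0381), with the other variance prior (0.0368) and with array weights (0.0304). The stem cell marker Utf1 was called lower in the same settings (adjusted p = 0.0450, 0.0433, 0.0223 and 0.0254). It was not called after renewed quantile (0.0695) or cyclic loess normalisation (0.0720). Zfp42 was called lower with array weights (adjusted p = 0.0395). Kdr lost its call after renewed quantile (adjusted p = 0.0631) and cyclic loess normalisation (0.0602) and over all probe sets (0.110). Smad5 lost its call after median centring (adjusted p = 0.0505) and with the other variance prior (0.0549). It also lost it over all probe sets with 1 symbol (0.0504) and over all probe sets (0.113). The causes were not tested. When 1 array was left out, the called members numbered 3 to 5 and the wider genes 2 to 8, in fits that called 355 to 1580 of all genes. The changes then ran from -1.00 to -0.76 for Bmp4, -0.66 to -0.53 for Id1, 0.69 to 0.89 for Id2, -0.30 to 0.29 for Id3, 0.46 to 0.59 for Id4, -0.03 to 0.27 for Smad6, -0.48 to -0.25 for Smad7, 0.07 to 0.18 for Bmpr1a, 0.26 to 0.35 for Bmpr2 and 0.03 to 0.15 for Nog. RMA carries no detection call, so signal over background is not known.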
